A study of Macaca mulatta with 23 samples.

Results

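The 7 genes that encode subunits of the NMDA receptor, GRIN1, GRIN2A, GRIN2B, GRIN2C, GRIN2D, GRIN3A and GRIN3B, were described by the DNA methylation measured in and around them in central amygdala tissue of 23 young rhesus monkeys. Members were the positions of the deposited table that fall inside 1 fixed window of the human build hg19 for each gene, 940 of 444312 positions in all. The rule uses position alone and no measured level. Each monkey gave 1 library of reduced representation bisulfite sequencing, which reads DNA cut by the enzyme MspI and therefore sees mainly CpG-rich stretches. The right hemisphere was sampled in 12 monkeys and the left in 11. Ages ran from 1.1 to 2.13 years, and the anxious temperament score, a continuous trait of each animal, ran from -1.48 to 1.43. The labels list no treatment and no manipulated gene, and no monkey is called a control. The tissue is bulk, so a level averages over all cell types of the sample, and a change in cell makeup and a change within cells cannot be told apart.

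NMDA receptors are glutamate-gated cation channels that open only when glutamate binds and the membrane is depolarised, and their calcium entry drives synaptic plasticity, including fear learning in the amygdala. GRIN1 encodes GluN1, the glycine-binding subunit that NMDA receptors require. The GRIN2 genes encode the glutamate-binding GluN2 subunits, which set the kinetics and the magnesium block of the channel, with GluN2B and GluN2D prominent early in development, GluN2A increasing after birth and GluN2C enriched in the cerebellum. GRIN3A and GRIN3B encode the GluN3 subunits, which bind glycine and lower calcium permeability. At CpG-rich gene starts, DNA is usually unmethylated, while CpGs within genes and between genes are usually methylated.

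The windows were chr9:140030-140067 kb for GRIN1, chr16:9844-10280 kb for GRIN2A, chr12:13711-14137 kb for GRIN2B, chr17:72835-72860 kb for GRIN2C, chr19:48895-48951 kb for GRIN2D, chr9:104328-104504 kb for GRIN3A and chr19:997-1012 kb for GRIN3B. They held 259, 70, 94, 76, 316, 15 and 110 measured positions in that order of genes. The long GRIN2A, GRIN2B and GRIN3A windows were sparsely measured, with 0.161, 0.221 and 0.0852 positions per kb, against 7.33 per kb for GRIN3B and 7 per kb for GRIN1. The windows reach past the genes, so the outermost measured stretches may belong to a neighbour. In the order of genes of the macaque RefSeq table of assembly T2T-MMU8v2.0, GRIN1 lies between LRRC26 and DPP7, GRIN2C between TMEM104 and FDXR, GRIN2D between KDELR1 and GRWD1, and GRIN3B between WDR18 and TMEM259. Exons, introns and UTRs were not annotated here, because no gene annotation of build hg19 was used.

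All values are methylation levels in percent, and differences are in percentage points. Read depth per position is unknown, so no interval for counting error can be given. No member position was measured in fewer than 17 monkeys, and 393 of the 940 were measured in all 23. Libraries differed in how much they measured. At the member positions, left 3 lacked 50.6% of the values, left 4 lacked 29.4%, right 9 lacked 21.7% and right 4 lacked 18.5%, while each of the other libraries lacked at most 10.9%. Of the values of right 9 at member positions with a mean between 20% and 80%, 45.6% were exactly 0 or 100, against 0.293% to 5.85% in the other 22 libraries, so right 9 and left 3 were left out together in alternative fits.

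Averaged over the measured positions of each window, GRIN2B had the highest level of the 7 windows, and GRIN2C, GRIN3B and GRIN1 had the lowest. Window means were 59.3 ± 1.59% for GRIN2B, 39.4 ± 2.59% for GRIN2A, 35.0 ± 2.71% for GRIN2D, 24.1 ± 5.79% for GRIN3A, 23.1 ± 1.72% for GRIN1, 21.8 ± 0.61% for GRIN3B and 19.5 ± 2.83% for GRIN2C (SD over monkeys, n = 23). GRIN2B ranged from 54.6% in left 2 to 61.9% in right 4, with a median of 59.5%, and exceeded GRIN2A in 23 of 23 monkeys, by 19.9 ± 3.71 points. GRIN2A ranged from 34.9% in right 4 to 44.1% in right 3, with a median of 39.6%, and exceeded GRIN2D in 21 of 23 monkeys, by 4.39 ± 3.57 points. GRIN2D ranged from 29.1% in right 12 to 39.5% in left 7, with a median of 35.5%, and exceeded GRIN3A in 22 of 23 monkeys. GRIN3A and GRIN1 did not differ beyond their spread: GRIN3A was higher in 16 of 23 monkeys, by 0.995 ± 5.58 points. GRIN1, between 19.1% and 27.2%, exceeded GRIN3B in 21 of 23 monkeys by 1.32 ± 1.52 points, and GRIN3B, between 21.1% and 23.4%, exceeded GRIN2C in 19 of 23 by 2.23 ± 2.65 points. These levels describe the positions that the enzyme made readable in each window and not whole genes. They also depend on how many measured positions lie at the gene start, where levels were low. In GRIN3B, 82 of 110 positions lay in the 6 kb at its start side, and the other 28 averaged 81.6%. The 79 GRIN2B positions outside that stretch averaged 69.8%, and GRIN1 and GRIN2C had no measured position in it. GRIN3A rested on 15 positions, and its highest value, 45.1%, came from right 9. Without right 9 and left 3 GRIN3A averaged 23.1 ± 3.70%, with a highest value of 30.3% (SD, n = 21).

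**Figure D1:**
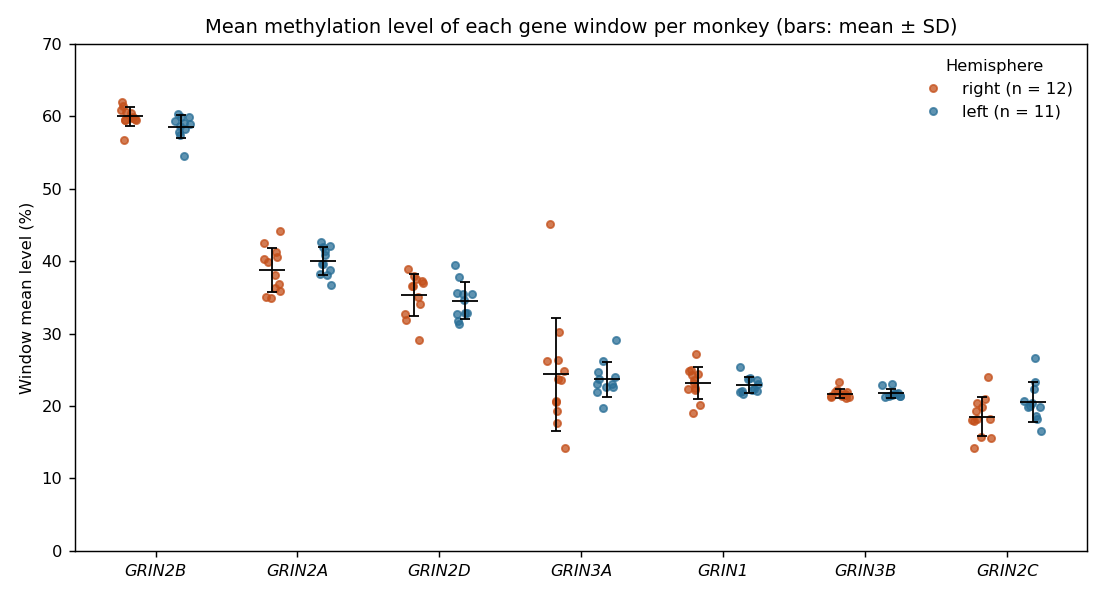
Mean methylation level (%) of the 7 gene windows, with 1 point per monkey, right hemisphere (n = 12) left of left hemisphere (n = 11), and bars for the mean ± SD of each. GRIN2B lies at 54.6% to 61.9%, above every other window in all monkeys, and the right and left points of each gene overlap.

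The gene starts were unmethylated wherever they were measured. The 6 kb of each window at the side where the gene starts, with the direction of each gene taken from general knowledge, held 147 positions in 5 of the 7 genes. All 147 had a mean under 20%, the highest being 13.0%, and their median was 1.17%. In the rest of the windows, 319 of 793 positions (40.2%) had a mean under 20%, 345 lay between 20% and 80%, 129 were over 80%, and the median was 28.6%. GRIN3B, with 82 start positions in 1 dense run, averaged 1.32% there against 81.6% over its other 28 positions. Of these 28, 24 lay in 1 run at the far edge of the window, which may belong to the neighbouring gene. GRIN2A averaged 1.57% over 22 start positions and 56.7% over the other 48. GRIN2B averaged 3.82% over 15 start positions and 69.8% over the other 79. GRIN2D averaged 3.34% over 20 start positions and 37.3% over the other 296, and GRIN3A averaged 0.906% over 8 start positions and 50.3% over the other 7.

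Start positions had a median SD over monkeys of 1.62 points, against 7.57 points for the other positions, a difference that goes with their low level. Among positions under 2% the median SD was 1.25 points at 113 start positions and 1.46 points at 76 others, and among those from 2% to under 5% it was 3.04 points at 22 start positions and 3.05 points at 93 others. From 5% to under 20% it was 4.53 points at 12 start positions and 6.05 points at 150 others. In that class the start positions had a median level of 7.04%, against 9.79% in the others. Both filters for testing, enough monkeys and enough range, were passed by 33 of the 147 start positions and 521 of the other 793. GRIN1 and GRIN2C had no measured position in this stretch, the nearest ones lying 12.8 kb and 7.13 kb inside the window, so the starts of these genes were not analysed here. At 10 kb in place of 6 kb, GRIN2A averaged 20.9% over 32 start positions, because the widened stretch took in a methylated run 6.01 kb from the edge of the window.

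**Figure D2:**
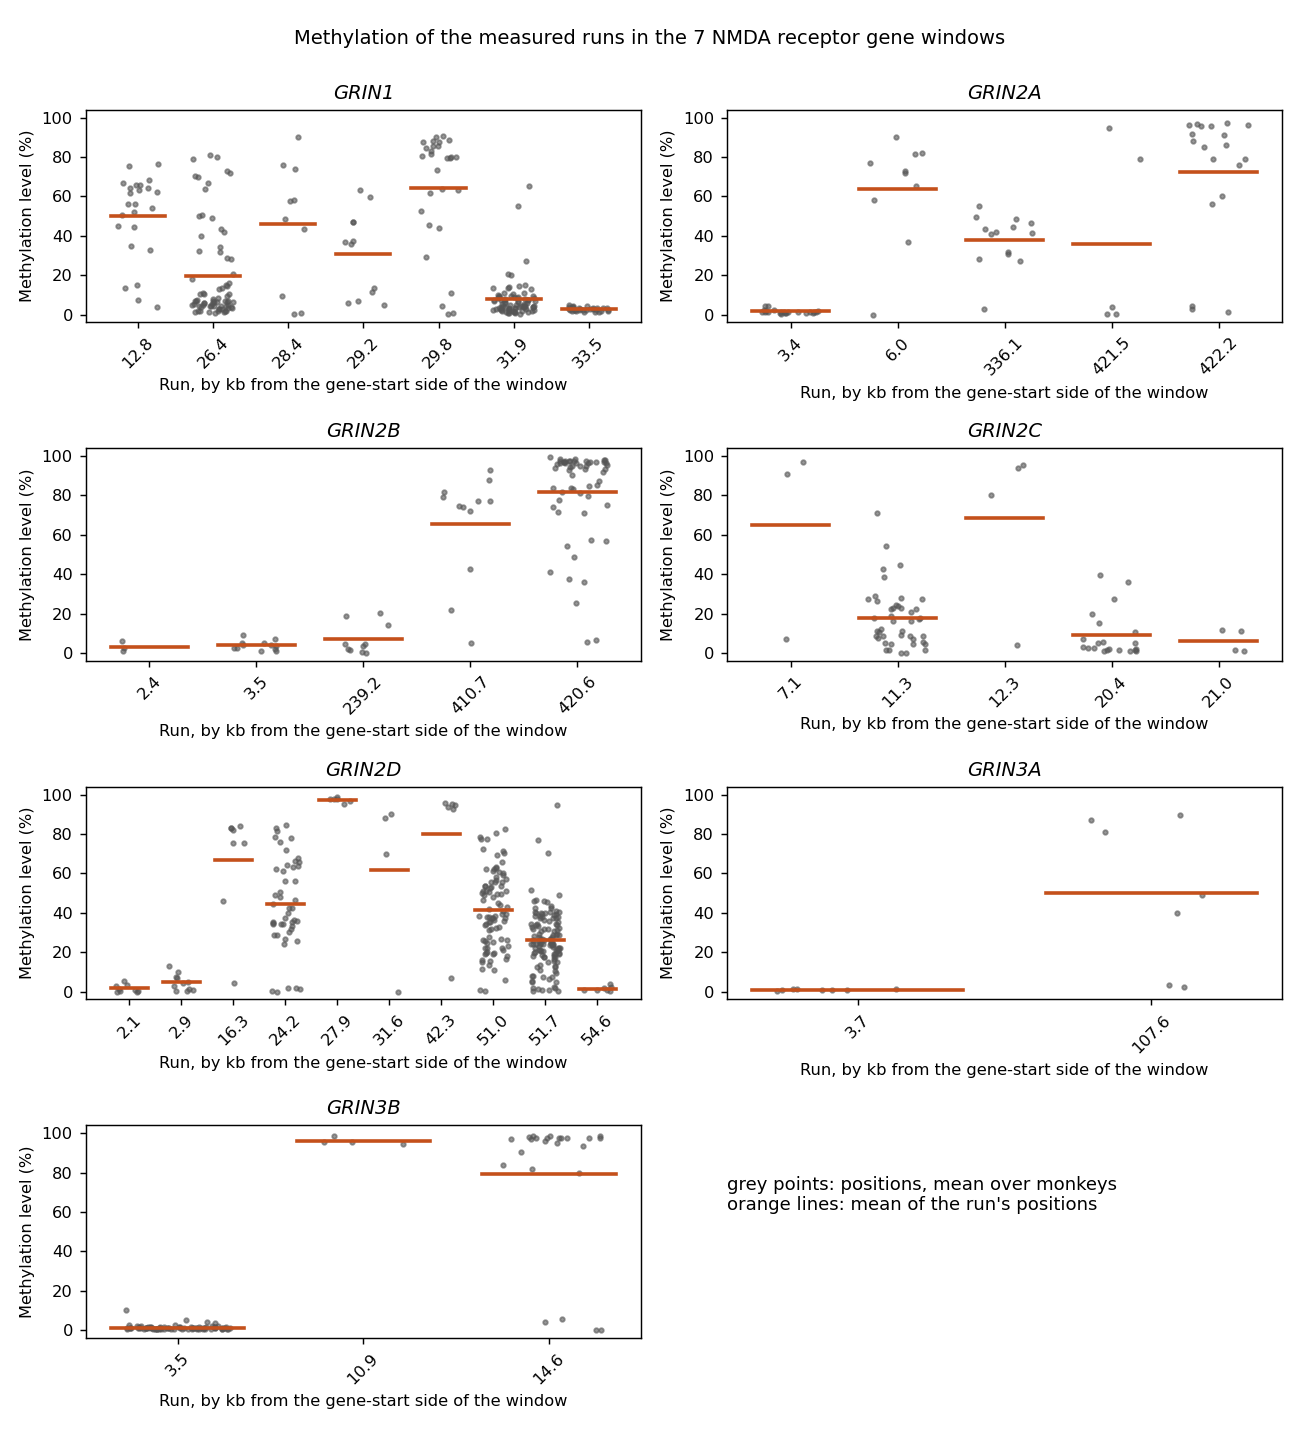
Mean methylation level over monkeys (%) of each position (grey points) in the 37 runs of the 7 windows, ordered by distance in kb from the gene-start side of the window, with the mean of each run as an orange line. Runs within 6 kb of the start side lie near 0%, with no position above 13.0%, and the runs further in spread over the whole scale, often with a few points near 0% below methylated neighbours.

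Positions fell into 37 runs, a run being a stretch of 3 or more positions, none further than 200 bp from the next, and 2 GRIN1 positions lay outside them. GRIN2B carried a dense and highly methylated run of 57 positions at chr12:13715885-13716451 (hg19), 421 kb from its start side and thus towards the end of the gene. Its mean was 82.3 ± 3.10% (SD, n = 23). As the mean of its position means, the level was 81.8%. Of the 985 runs in the whole table with at least 50 positions, 29 (2.94%), itself included, were at least as high on that measure. The other member runs of that size were 2 in GRIN2D, 2 in GRIN1 and 1 in GRIN3B, and 17.5%, 21.8%, 24.7%, 30.3% and 54.8% of such runs were at least as high as them. The median level of the 6 member runs of at least 50 positions was 22.9%, against 1.43% for the 979 other such runs. For runs of 10 to 49 positions the medians were 38.0% over 17 member runs and 15.7% over the other runs, and for runs of 3 to 9 positions they were 56.1% over 14 member runs and 53.1% over the other runs. These medians describe a handful of runs that share genes, and no test was made of them.

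GRIN2D had the largest share of positions at intermediate levels among the 7 genes. Of its 316 positions 205 (64.9%) had a mean between 20% and 80%, against 26.6% in GRIN1, 35.7% in GRIN2A, 24.5% in GRIN2B, 26.3% in GRIN2C, 2 of 15 in GRIN3A and 1 of 110 in GRIN3B. Of these, 74 and 88 lay in 2 large runs about 51 kb from the start side. The run of 91 positions at chr19:48946039-48946453 averaged 39.4 ± 7.65%, with 18.8% in left 3 as its lowest value, a median of 41.4% and 48.7% in right 9 as its highest. Left 3 and left 4 had values at only 19 of these 91 positions each. With each position centred on its own mean before averaging, the SD over monkeys was 4.82 points and the lowest value 28.04%, in right 12. The run of 127 positions at chr19:48946672-48947561 averaged 25.9 ± 4.65%, between 16.5% and 33.8%. Between the start and these runs, 47 positions at chr19:48919174-48919503 averaged 45.2 ± 5.8%, and 6 positions at chr19:48922931-48923038 averaged 97.3 ± 1.19%. The SD of the 47-position run, on centred means, was 5.79 points with right 9 and left 3 and 3.59 points without them.

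The GRIN1 window was mostly weakly methylated, with 174 of its 259 positions under 20%. Of these, 75 and 30 lay in the runs given next. Its largest run, 80 positions at chr9:140061868-140062476, averaged 7.58 ± 1.69%, and the 30 positions at chr9:140063501-140063610 averaged 2.69 ± 1.38%. Both lie towards the far side of the window, where a run may belong to the neighbouring gene. Between the measured part nearest the start and these runs, levels alternated: 49.5 ± 2.87% over 24 positions from chr9:140042791, 17.6 ± 6.77% over 73 positions from chr9:140056357, 41.7 ± 8.23% over 10 positions from chr9:140058396, 30.8 ± 2.75% over 12 positions from chr9:140059173 (n = 18) and 63.3 ± 4.19% over 28 positions from chr9:140059830. The 73-position run was lowest in left 4, at 2.6% over 45 of the positions, and highest in right 9, at 31.5%. On centred means the SD of the 10-position run was 3.37 points and that of the 28-position run 2.83 points, left 3 having values at 6 and 11 of these positions. For the 73-position run the SD on centred means was 4.50 points, and the extremes were 8.66% in right 12 and 31.2% in right 9.

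GRIN2A and GRIN3A held the member runs that varied most between monkeys among those measured in over 20 of them. The GRIN2A run of 10 positions at chr16:10273846-10273995, the first run inward from its unmethylated start run, averaged 61.7 ± 11.7% (SD, n = 22). It ranged from 40.1% in right 4 to 77.2% in right 3, with a median of 64.4%. Its position with the largest spread, chr16:10273846, had 14%, 17%, 25%, 27%, 43%, 64%, 77%, 78%, 83%, 100% and 100% in the right-hemisphere monkeys and 36%, 44%, 47%, 47%, 53%, 64%, 64%, 79% and 100% in the left-hemisphere monkeys. Both hemispheres thus spanned most of the scale and overlapped. Over the 6 positions of this run with mean levels between 20% and 80%, the Pearson correlation between positions, over at most 21 monkeys without right 9 and left 3, had a median of 0.71 in 15 position pairs, of which 66.7% were positive. In the 14 other member runs with at least 5 such positions the medians lay between 0.0731 and 0.473. The other GRIN2A runs of that kind had medians of 0.47 and 0.47 with 100% of the pairs positive. Neighbouring positions share reads and depth, so these correlations describe the run only. The GRIN2A run of 14 positions at chr16:9943738-9943861 averaged 37.3 ± 8.39%, between 14.3% in right 9 and 54.3% in left 2. Right 9 had values at only 7 of these positions. On centred means the SD of this run was 8.79 points with right 9 and left 3 and 6.95 points without them. The 19 positions at chr16:9857475-9857779, towards the end of the gene, averaged 72.6 ± 2.30%.

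GRIN3A had 2 runs, GRIN2C 5 and GRIN3B 3. The 8 positions at chr9:104500184-104500300, on the start side of GRIN3A, averaged 0.881 ± 0.771% (n = 20), and the 7 positions at chr9:104396337-104396431 averaged 51.6 ± 8.84% (n = 21), between 40.3% in left 1 and 71.4% in right 9. GRIN3A spans PPP3R2, a phosphatase subunit gene, in the macaque table, and which of the genes the second run belongs to was not annotated here. The largest GRIN2C run, 44 positions at chr17:72848253-72848746, averaged 17.9 ± 3.22%, between 10.9% and 23.0%, and 4 positions at chr17:72847548-72847736 averaged 68.4 ± 3.36%. Its other runs were 21 positions from chr17:72839429 at 9.08 ± 1.89%, 4 from chr17:72838961 at 6.42 ± 4.10% and 3 from chr17:72852823 at 65.1 ± 8.58% (n = 19 each). In GRIN3B, the 82 positions at chr19:1000486-1000862 averaged 1.29 ± 0.655% and the 24 positions at chr19:1011563-1011689 averaged 79.4 ± 1.56%. The second of these runs lies at the far edge of the window, where a run may belong to the neighbouring gene.

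Level classes of the members were set beside those of the rest of the table. Of the 940 positions 49.6% had a mean under 20%, 36.7% lay between 20% and 80% and 13.7% were over 80%, against 60.9%, 18.0% and 21.1% of the other 443372 positions. GRIN2D alone gave 205 of the 345 intermediate member positions. Without GRIN2D, 60.6% of 624 member positions were under 20%, 22.4% were intermediate and 17.0% were over 80%. The intermediate positions had a median SD over monkeys of 11.9 points in the members and 14.7 points elsewhere, and the positions under 20% had 2.93 points in the members and 1.71 points elsewhere. Positions in a run share reads and are not independent, so these shares were not tested.

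Many members came as neighbours 1 bp apart, which are the cytosines of both strands of a single CpG where both strands are listed. There were 337 such pairs, and they give a second reading of the same site in the same monkey. In 317 pairs the mean levels differed by at most 30 points, with a median difference of 1.44 points between the means and of 4 points within a monkey. In the 108 of these pairs with intermediate levels, the mean of the pair had a median SD over monkeys of 7.93 points. The difference between its strands within a monkey had a median SD of 12.3 points. A difference and a mean are on unlike scales, so these SDs cannot be compared directly. Put on the scale of the pair mean, the SD of the strand difference had a median of 6.17 points, below the 7.93 points. The correlation between strands over monkeys had a median of 0.22. GRIN2D gave 75 of these 108 pairs, and the 8 GRIN2A pairs had a higher median correlation, 0.43.

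The other 20 pairs disagreed by more than 30 points, and most of them were at the ends of runs. Levels of pairs are over the monkeys with both values. Of the 31 pairs that form the first or last pair of a run, 12 disagreed, against 8 of 306 inner pairs. In all 6 such pairs at a first edge the second position was the lower one, and in all 6 at a last edge the first was the lower one. In GRIN2A, chr16:9857475 had a mean of 75.9% and chr16:9857476 a mean of 2.57%, while at the other end of the run chr16:9857778 had 4.22% and chr16:9857779 had 97.2%. In GRIN3B, chr19:1011563 and chr19:1011564 had 83.4% and 3.94%, and chr19:1011688 and chr19:1011689 had 5.83% and 98.7%. In GRIN2B, chr12:13715885 had 91.9% and chr12:13715886 had 5.68%. The labels' protocol repaired the ends of the MspI fragments before conversion, which can fill in unmethylated cytosines at a fragment's end, but its part in these values was not tested. Of the 8 discordant inner pairs, 6 lay in the GRIN2B run, such as chr12:13716030 at 6.83% beside chr12:13716031 at 96.3%.

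**Figure D3:**
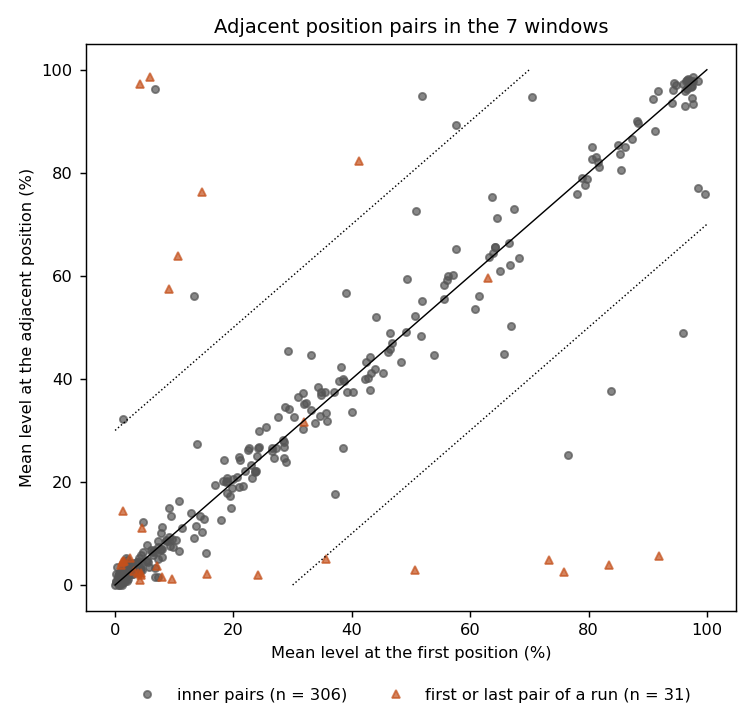
Mean methylation level over monkeys (%) at the first and at the adjacent position of the 337 pairs, with first or last pairs of a run (n = 31) as triangles, inner pairs (n = 306) as circles, the line of equality, and dotted lines at a difference of 30 points. Most pairs lie on the line, and 12 of the 20 pairs beyond the dotted lines are at a run edge.

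Isolated unmethylated positions also occurred inside methylated stretches. In the 15 runs whose positions had a median level of at least 50%, 24 of 219 positions had a mean under 10%, spread over 13 of the 15 runs, and these include run-edge positions of the kind above. One of them, chr16:10273905 in the variable GRIN2A run, was at 0% in every monkey with a value (n = 22). A cytosine absent from the macaque genome and an unmethylated cytosine look alike in these values and cannot be told apart, because macaque reads were placed on a human build.

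The largest SD over monkeys of any member position came from 1 CpG in the GRIN2B run, listed on both strands, and 5 monkeys accounted for it. At chr12:13715936 and chr12:13715937, 18 monkeys had levels of at least 86%, and the mean over all 23 was 81.3 ± 29.7% and 83.1 ± 29.3%. Right 7 had 44% and 54%, left 1 had 47% and 50%, left 6 had 51% and 50%, left 7 had 6% and 10%, and left 2 had 1% and 0%. On both strands left 2 was lowest, left 7 next, and the other 3 between 44% and 54%. The Pearson correlation between strands was 0.99 over 23 monkeys and is set by these 5.

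The same 5 monkeys were low at a second CpG 200 bp further on, chr12:13716136 and chr12:13716137. There right 7 had 50% and 56%, left 1 had 52% and 47%, left 6 had 39% and 56%, left 7 had 60% and 65%, and left 2 had 0% and 0%, while the other monkeys with a value had at least 89%. Levels near 100%, 50% and 0% recurred, except that left 7 was near 0% at the first CpG and near 60% at the second. The nearest neighbours were at higher levels in these monkeys. The 5 monkeys had 89% to 95% at chr12:13715942 and 82% to 95% at chr12:13715943, against 91% to 98% and 88% to 100% in the other 18. On the other side they had 93% to 98% at chr12:13715930 and 89% to 96% at chr12:13715931, against 88% to 100% and 87% to 100% in the others. Averaged without the 4 positions, the run was at 79.3% to 82.3% in these 5 monkeys, against a mean of 82.7% in the other 18. On centred means without the 4 positions, the run ranged from 77.4% to 85.7% over all monkeys. The lowest was left 3, which is not one of the 5 and had values at only 18 of the 57 positions. A base that differs between monkeys and a loss of methylation at the site cannot be told apart in these values.

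**Figure D4:**
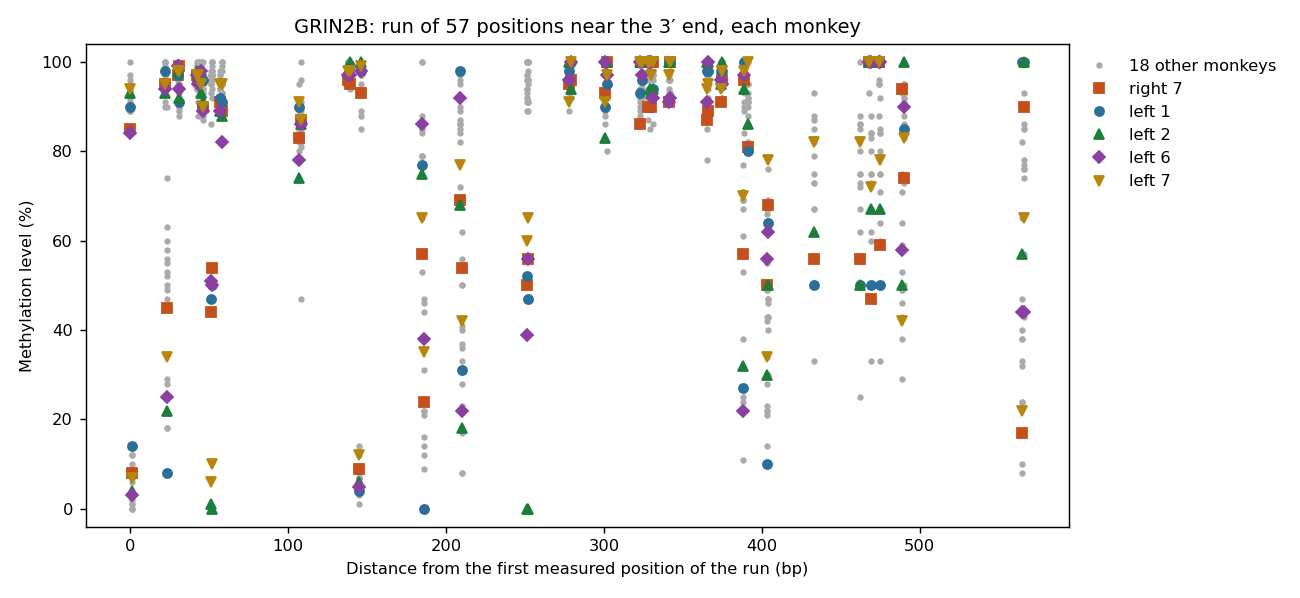
Methylation level (%) at the 57 positions of the GRIN2B run against the distance in bp from its first position, with the 5 monkeys that were low at 2 CpGs as coloured symbols and the 18 other monkeys as grey points. The coloured symbols drop to between 0% and 65% at 51 to 52 bp and at 251 to 252 bp and average 79.3% to 82.3% over the rest of the run.

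The design text treats the anxious temperament score as a continuous trait with age as the covariate, so the slope of each level on the score was estimated with age in the model. None of the members was called. With limma and Benjamini-Hochberg adjustment over all 192151 tested positions of the table, 0 of the 554 tested member positions had an adjusted p under 0.05, as in the whole table, where percent called was 0. An unadjusted p under 0.05 was found for 8 of 554 (1.44%), 2 with a positive and 6 with a negative slope, below the 3.12% of the whole table. Without right 9 and left 3, 15 of 554 (2.71%) did, against 4.52% of the whole table. Over all 554 tested members, 221 slopes (39.9%) were positive and 333 negative, against 52.5% positive over all tested positions. GRIN2D gave 224 of the 554, and positions in a run share reads, so this share was not tested. The 8 were 3 in GRIN1, 4 in GRIN2D and 1 in GRIN3B. The median slope was -0.44 points per score unit over the tested members and 0.0913 over all tested positions, and the median size of a slope was 1.27 points in the members and 1.14 points overall.

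The runs gave no call either. Of 24 tested member runs, 0 had an adjusted p under 0.05 in limma (percent called over all 21253 tested runs was 0) and 0 had an unadjusted p under 0.05, against 3.2% of all tested runs. Slopes were positive in 10 (41.7%) and negative in 14, against 49.4% positive over all tested runs. The smallest p was that of the 30 weakly methylated GRIN1 positions from chr9:140063501, which changed by -0.74 ± 0.40 points for each score unit (SE, n = 23), p = 0.0751 and adjusted p = 1 in limma. Their levels ran from 0.0333% in right 9 to 5.83% in right 2, a span near the floor of the scale. The GRIN3B run from chr19:1011563 followed with -0.99 ± 0.54 points and p = 0.0822 in limma, adjusted p = 1, but its slope was -0.10 ± 0.51 points on centred means. Next were the 12 GRIN2B positions at chr12:13726108-13726279, at 65.7 ± 4.55%, with -1.57 ± 1.27 points, the 4 GRIN2C positions from chr17:72847548 with 1.15 ± 0.97 points, and the 14 GRIN2A positions from chr16:9943738 with -1.83 ± 2.16 points. The GRIN2D run with the smallest p, from chr19:48919174, had 1.34 ± 1.73 points, and the only tested GRIN3A run had 0.86 ± 2.77 points.

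**Figure D5:**
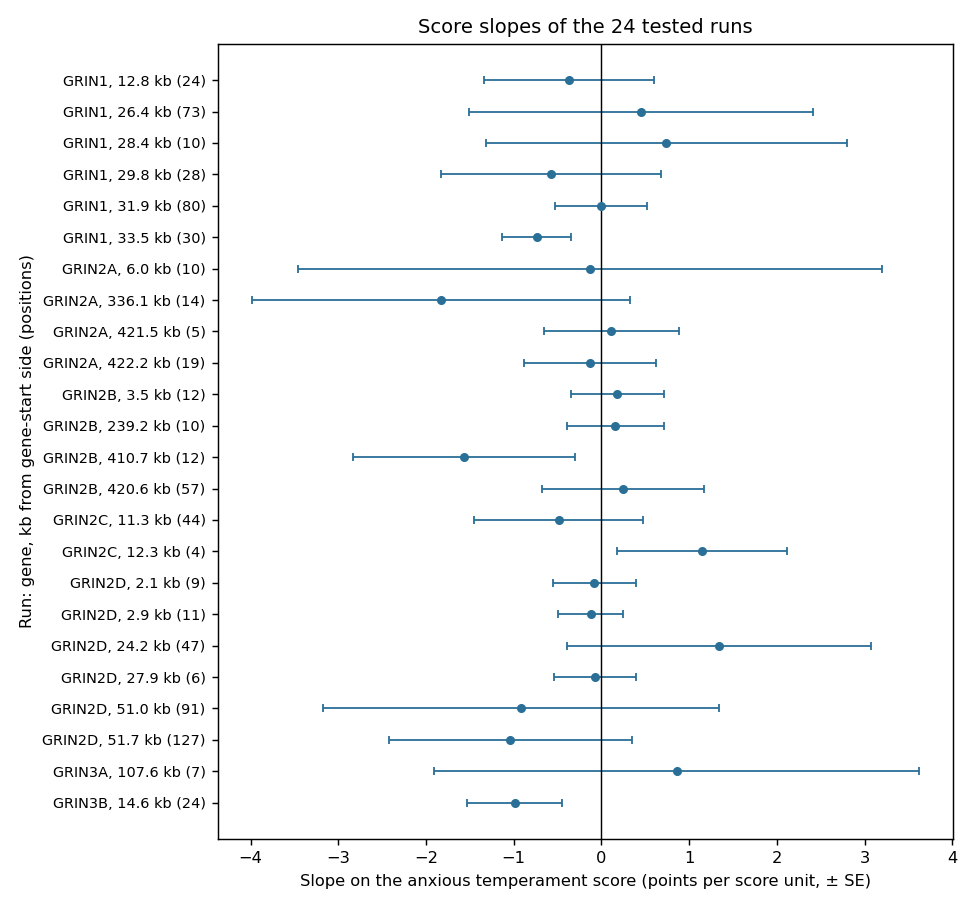
Slope of the mean level on the anxious temperament score (points per score unit, ± SE) for the 24 tested runs of the 7 genes, each named by its distance in kb from the gene-start side and its number of positions. Slopes lie on both sides of 0, 10 positive and 14 negative, and 0 of 24 had an unadjusted p under 0.05.

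For whole windows the slopes were given with intervals and no test. The slope of the window mean on the score was -0.38 points per score unit for GRIN1 (95% interval -1.45 to 0.69), 0.13 for GRIN2A (-1.37 to 1.63), -0.03 for GRIN2B (-1.02 to 0.96), -0.01 for GRIN2C (-1.77 to 1.76), -0.67 for GRIN2D (-2.35 to 1.02), 0.003 for GRIN3A (-3.63 to 3.63) and -0.03 for GRIN3B (-0.42 to 0.35). Each interval included 0. The GRIN3B interval, the narrowest, held no slope steeper than 0.42 points per score unit in either direction, and the GRIN3A interval was the widest.

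Among the 5 positions with the smallest p for the score, each whose partner cytosine on the other strand was tested had a smaller or opposite slope there. Because the 5 were picked by their p, a smaller slope at a partner can come from the picking alone. At chr9:140060033 in GRIN1, levels ran from 24% to 62% with a median of 43%, and the slope was 8.92 ± 3.10 points per score unit (p = 0.00854, adjusted p = 1 in limma, n = 21). The adjacent cytosine, chr9:140060034, had a slope of 1.67 ± 5.20 points, and the correlation between both over monkeys was 0.21. In GRIN3B, chr19:1011598 ran from 58% in left 8 to 100%, with a median of 95% and a slope of -6.48 ± 2.31 points (p = 0.0101, adjusted p = 1 in limma), while its partner chr19:1011597 had 7.00 ± 3.81 points. In GRIN2D, chr19:48946354 ran from 27% to 83% with a slope of -9.62 ± 3.70 points, and its partner had -2.51 ± 4.48 points. The other 2 of the 5 lay in the GRIN1 run near 0%: chr9:140063550, between 0% and 16%, with -2.58 ± 1.04 points, and chr9:140063539, between 0% and 12%, with -1.90 ± 0.80 points beside -1.44 ± 0.82 points at its partner.

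In the windows without such a position, the smallest p for the score belonged to chr12:13716163 in GRIN2B (-2.33 ± 1.12 points, p = 0.0505 in limma), chr16:10273962 in GRIN2A (9.25 ± 4.55 points, p = 0.0542 in limma), chr17:72848460 in GRIN2C (7.27 ± 3.64 points, p = 0.0587 in limma) and chr9:104396397 in GRIN3A (-4.53 ± 3.86 points, p = 0.252 in limma). None of these passed the adjustment. The widest spread over monkeys in each window, beyond the GRIN2A and GRIN2B positions above, was found at chr9:140057090 in GRIN1 (72.9 ± 29.0%, n = 17), chr17:72848439 in GRIN2C (28.9 ± 20.9%, n = 20), chr19:48946235 in GRIN2D (62.3 ± 28.2%, n = 17), chr9:104396431 in GRIN3A (39.8 ± 21.6%, n = 21) and chr19:1011563 in GRIN3B (81.6 ± 15.6%, n = 19).

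Each monkey gave a single hemisphere, so right and left were compared between animals, with score and age in the model. With limma, 0 of 554 member positions were called (percent called over the table was 0), and 10 of 554 (1.81%) had an unadjusted p under 0.05, 2 higher and 8 lower in the right hemisphere, against 3.48% of all tested positions. Over all tested members the order was the other way. Higher on the right were 310 of 554 positions (56.0%) and 17 of 24 runs (70.8%). Over the whole table these shares were 54.3% of tested positions and 52.3% of tested runs. Positions in a run share reads, so these shares were not tested. Run levels are plain means, which shift with the positions a library lacks. The median right minus left over the member runs was 0.418 points, against 0.108 points over all tested runs. On centred means it was 0.287 points in the member runs, and without right 9 and left 3 it was 0.123 points. The median difference was 0.38 points over the tested member positions, against 0.33 points over all tested positions. Of the 24 member runs 0 were called (percent called 0) and 0 had an unadjusted p under 0.05, against 3.12% of all tested runs. The smallest p among the runs belonged to the large GRIN2B run, at 83.3 ± 2.46% on the right and 81.3 ± 3.48% on the left (p = 0.145, adjusted p = 0.98 in limma), and to the large GRIN2C run, at 16.9 ± 3.46% on the right and 18.8 ± 2.76% on the left (p = 0.147, adjusted p = 0.98 in limma).

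The GRIN2B window was at 60.0 ± 1.29% in right-hemisphere monkeys and 58.6 ± 1.60% in left-hemisphere monkeys (SD, n = 12 and 11), an adjusted difference of 1.39 ± 0.63 points with a 95% interval of 0.0707 to 2.71. Of the 5 monkeys low at the 2 GRIN2B CpGs, 4 were left. Those 4 positions, the widest of the window, were left out after their values were seen. The window was then at 58.6 ± 1.01% on the right and 57.9 ± 0.815% on the left, a difference of 0.694 points. Its interval was -0.159 to 1.55. Because the 4 positions were low mostly in left monkeys, a smaller difference can come from the picking alone. The GRIN2C window was at 18.5 ± 2.66% on the right and 20.6 ± 2.72% on the left, a difference of -2.14 ± 1.16 points (interval -4.57 to 0.288). Left 3, which lacked many values, had the highest GRIN2C level, 26.6%, and without right 9 and left 3 the difference was -1.28 ± 1.06 points. For the other 5 genes the difference lay between -1.05 points in GRIN2A and 0.763 points in GRIN2D, and each interval included 0. The 2 positions with the smallest p for hemisphere were both in the large GRIN2C run. At chr17:72848493 levels were 3.27 ± 4.24% on the right in 11 monkeys and 12.8 ± 10.3% on the left in 9 monkeys. The difference was -9.08 ± 3.03 points, p = 0.0069 and adjusted p = 0.93 in limma. At chr17:72848451 they were 11.1 ± 10.9% on the right and 22.4 ± 5.70% on the left, p = 0.0107 and adjusted p = 0.93 in limma.

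Age, the study's covariate, also gave no call among the members. With limma, 0 of 554 positions were called, against 0.0531% of all tested positions, and 16 of 554 (2.89%) had an unadjusted p under 0.05, 10 with a positive slope, against 4.06% overall. Of the 24 runs 0 were called, against 0.0565% of all tested runs, and 3 had an unadjusted p under 0.05 (12.5%, against 4.81%). The smallest p was at chr16:9857778 in GRIN2A, 8.31 ± 2.33 points per year, p = 0.00154 and adjusted p = 0.44 in limma. That is one of the run-edge positions near 0%, and its partner had 1.58 ± 2.70 points per year. In GRIN2D, chr19:48946371 had 28.8 ± 8.68 points per year, p = 0.00315 and adjusted p = 0.61 in limma. Among runs, the 10 GRIN1 positions at chr9:140058396-140058565 had -20.1 ± 6.94 points per year, p = 0.00828 and adjusted p = 0.81 in limma, but 0.045 points per year on centred means. The 14 GRIN2A positions from chr16:9943738 had 17.6 ± 7.27 points per year, p = 0.024 and adjusted p = 0.98 in limma. At 2.13 years left 1 was the oldest animal, followed by right 2 at 1.64 years. Without left 1, the member runs below the unadjusted cutoff of 0.05 fell from 3 to 1. Member positions below it rose from 16 to 23 (4.15%), and the table's share was then 3.52%. Without a variance trend the member share was 4.33% and the table's 4.28%. In each other alternative fit of positions, the member share stayed lower than the table's. The age calls of the whole table, positions and runs alike, dropped to 0 once left 1 was omitted.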

How the data were processed

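Genomic DNA from the central amygdala nucleus of 23 rhesus monkeys was profiled by reduced representation bisulfite sequencing, 1 library each. The authors deposited methylation levels as a fraction between 0 and 1, which were multiplied by 100 here. Per the submitters' processing notes, Bismark 0.11.1 and the human build hg19 were used. Coverage filters and strand treatment were not given in the sources used here. No read counts accompany the levels, so depth is unknown and precision is judged from the spread between monkeys. The replicates are separate animals.

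To be tested, a position needed 20 or more monkeys with a value and 10 points or more between the lowest and the highest, which left 554 of the 940 members (58.9%); 195 members had fewer monkeys and 191 a narrower range. Runs needed 5 points. The linear models of limma 3.58.1 (R 4.3.3, empirical Bayes with a trend) had terms for score and age, plus hemisphere for right minus left, and ran over the whole table, with a call at a Benjamini-Hochberg adjusted p under 0.05, 2-sided. The fit was tested on simulated data. A run level is the plain mean of the values present. A window mean averages deviations from each position's mean over monkeys, and its slope is from an ordinary linear model with no p.

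Named were, for each gene, the run with the most positions, the run and the position of smallest p on the score, and the position of largest SD. Added were the 5 positions and 5 runs of smallest p on the score over all genes, and 2 each for hemisphere and age. Other positions and runs were named after their values were seen. The members and lists were chosen with earlier results of these data known. Tables were made with Python 3.11.15 and pandas 2.3.3, figures with matplotlib 3.10.9.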

Additional observations from a re-analysis of the deposited data

How the results depend on the processing

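Calls among the members stayed at 0 for score, hemisphere and age in every alternative run: a logit scale, a wider range filter, no variance trend, omission of right 9 and left 3 or of left 1, the identifier series (r or B) as covariate and, for runs, centred means and gaps of at most 100 bp. The score count of positions at an unadjusted p under 0.05 was 8 and became 5 of 381 with a range of at least 20 points (1.31%, against 3.01% of all tested positions) and 15 without right 9 and left 3 (2.71%, against 4.52%). Without left 1, the run count was 1 of 24 for hemisphere and 1 of 24 for age (4.17% each, against 3.68% and 3.33% of all tested runs). Window slopes on the score became, with a plain mean, -0.66 for GRIN2A, 1.24 for GRIN2B, 5.67 for GRIN3A and -0.69 for GRIN3B, and within series r -0.90 for GRIN1. Right minus left became, with a plain mean, 0.26 for GRIN2B, 4.57 for GRIN3A and -3.80 for GRIN3B, within series r -3.80 for GRIN2C and -0.58 for GRIN2D, within series B -0.35 for GRIN2C, 2.17 for GRIN2D and 0.19 for GRIN3B, and 0.69 for GRIN2B without its 4 widest positions, a choice made after seeing the data. A plain mean shifts with the positions a library lacks; the cause of the other shifts was not tested. Without right 9 and left 3, right minus left was -1.28 for GRIN2C, -0.63 for GRIN2A, 0.37 for GRIN2D, -0.18 for GRIN1 and -1.37 for GRIN3A. The GRIN2A start level was 20.94 at 10 kb.

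Of 243 alternative values for the 37 named results, 0 changed side of the threshold and 10 reversed. The score slope of the GRIN3B run from chr19:1011563 shrank from -0.99 to -0.10 on centred means. The reversed score slopes were -1.003 at chr12:13715936 with the series as covariate; 0.0628, 0.0115 and 0.455 at chr17:72848439 on the logit scale, without left 1 and with the series; -0.00106, -0.0526 and -0.0941 for the GRIN1 run from chr9:140061868 on the logit scale, with the series and on centred means; and, on centred means, -0.0573 for the GRIN3A run from chr9:104396337 and -0.55 for the GRIN1 run from chr9:140058396, whose age slope became 0.045. No paired analysis was possible because right and left came from different animals, and replicate numbers only name the samples in their order. A higher coverage minimum was not run, since depth is unknown.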
